A study of Danio rerio with 3 samples.

Results

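Carriers and pumps for ions and metals were described in muLECs, the mural lymphatic endothelial cells of the adult zebrafish brain. The genes were taken by symbol: solute carrier families for bicarbonate, sodium, protons, chloride, sulfate, phosphate, zinc, copper, iron and magnesium, and the P-type pumps for sodium, calcium and copper. The rule found 123 genes among the 32105 gene IDs of the count table, 26269 of which had a symbol. The rule used no measured value, but the genes were chosen with earlier results of these data known. The study addresses, by its title, the part of these cells in the growth of meningeal vessels. All samples belonged to 1 group: wildtype adult fish, cells sorted on a lyve1 DsRed reporter after Liberase digestion of the brain, RNA amplified before sequencing, and 3 libraries of 6 pooled brains each. No second population is in the group, so each gene was set against the median detected gene and not against other cells. The sources used here give neither the sex nor a narrower age of the fish.

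An animal cell spends much of its ATP on the sodium pump, which exchanges internal sodium for external potassium and is built from an alpha subunit, the enzyme, and a beta subunit, which carries the alpha subunit to the membrane. The sodium gradient it makes then drives many secondary carriers, among them the sodium-proton, sodium-bicarbonate, sodium-calcium and sodium-phosphate carriers. Calcium pumps empty the cytosol into the endoplasmic reticulum, the Golgi or the outside. Zinc, copper and iron are moved by importers and exporters that keep the free metal low. Exchangers of internal membranes help to set the pH of endosomes and the Golgi, which matters in cells with heavy endocytosis.

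The libraries held 36044297, 35168650 and 34307745 reads in genes in replicates 1, 2 and 3. At least 10 reads were found for 7472, 6117 and 9739 genes, so replicate 2 had the fewest detected genes and replicate 3 the most. Of 7 lymphatic markers, 6 took more reads than the median gene, with PROX1 at 614, 1213 and 1 reads the exception. Their summed level was 5509 to 7041 CPM (reads scaled to library size), and MRC1 gave most of it, at 3790, 5318 and 3759 CPM. The sort itself used lyve1, so that gene checks the sort only. Of 6 general endothelial markers 4 passed the same test, while cdh5 had 0, 3 and 0 reads and kdrl 3, 1 and 1. Markers of other cells were also present, among them mbpa, a myelin gene, at 21711, 59025 and 28106 reads, and cd74b, an antigen presentation gene, at 58, 306 and 15963 reads.

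The members together took 0.359% ± 0.0210 of all reads (SD, n = 3), and 45 of the 123 reached 10 reads in at least 2 libraries and were tested. That is 36.6%, beside 25.8% of all genes with a symbol. No read fell on 33 members in any library (26.8%, beside 36.3% of genes with a symbol). A further 21 had no more than 3 reads in every library, a level at which presence cannot be told from a stray read. In libraries of this depth 3 reads correspond to 0.0729 to 0.107 CPM, and reads of amplified RNA are not independent molecules, so this floor covers counting error alone. At least 10 reads in exactly 1 library were found for 22 members (17.9%, beside 17.4% of genes with a symbol), and for 13 of the 22 that library was replicate 3. The share of replicate 3 among such single-library genes was 59.1% of the members and 59.6% of the genes with a symbol.

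**Figure D1:**
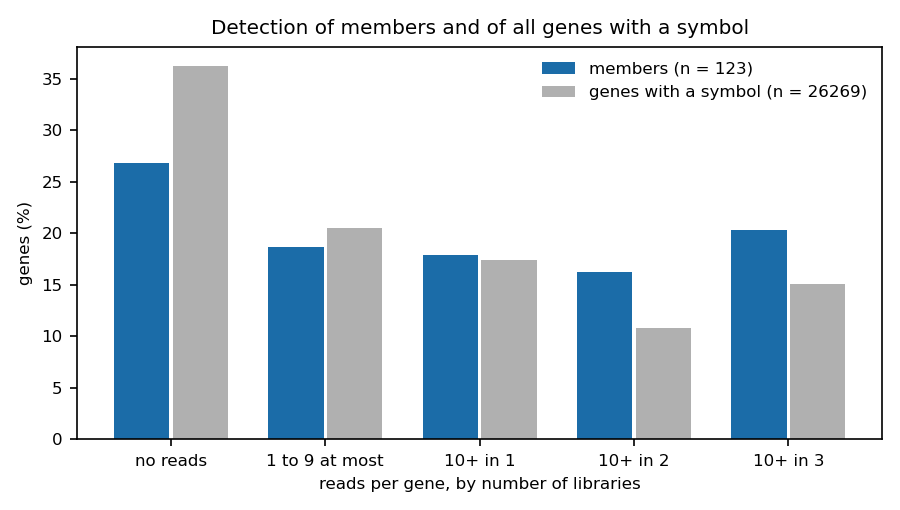
Share of genes (%) with no reads, with at most 1 to 9 reads, and with at least 10 reads in 1, 2 or 3 libraries, for the 123 members and the 26269 genes with a symbol. Members had fewer genes without reads (26.8% against 36.3%) and more with at least 10 reads in all 3 libraries (25 of 123 against 3952 of 26269).

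Of the 45 tested members, 10 took more reads than the median tested gene, 0 took fewer and 35 did not pass (edgeR quasi-likelihood test, adjusted p under 0.05). The background was 23.4% of the 7111 tested genes above and 1.24% below, so the 22.2% of members above stood near it. The median log2 ratio was 0.08 for the tested members and 0.22 for all tested genes. For the count of 0 below, 2 members had an unadjusted p under 0.05 with edgeR, 0 were called by DESeq2 and 7 by limma-trend, which called 14.7% of all tested genes below (DESeq2 0%). Both tools called the same 10 members above, beside a background of 22.3% for DESeq2 and 23% for limma-trend. Among the 10 genes above were the pump subunit genes ATP1B1 and ATP1B4, the copper importer gene SLC31A1, the zinc importer gene slc39a1, the phosphate carrier genes SLC20A1 and SLC20A2, the endosomal exchanger gene SLC9A7, and the calcium pump gene ATP2A3. The 10 together held 87.8% ± 3.18 of all member reads, a share that follows in part from calling genes by their reads. Reads were not divided by gene length, so the order of the members is an order of reads and not of transcript numbers. In bulk RNA of sorted cells, fewer cells that express a gene and less RNA per cell cannot be told apart.

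**Figure D2:**
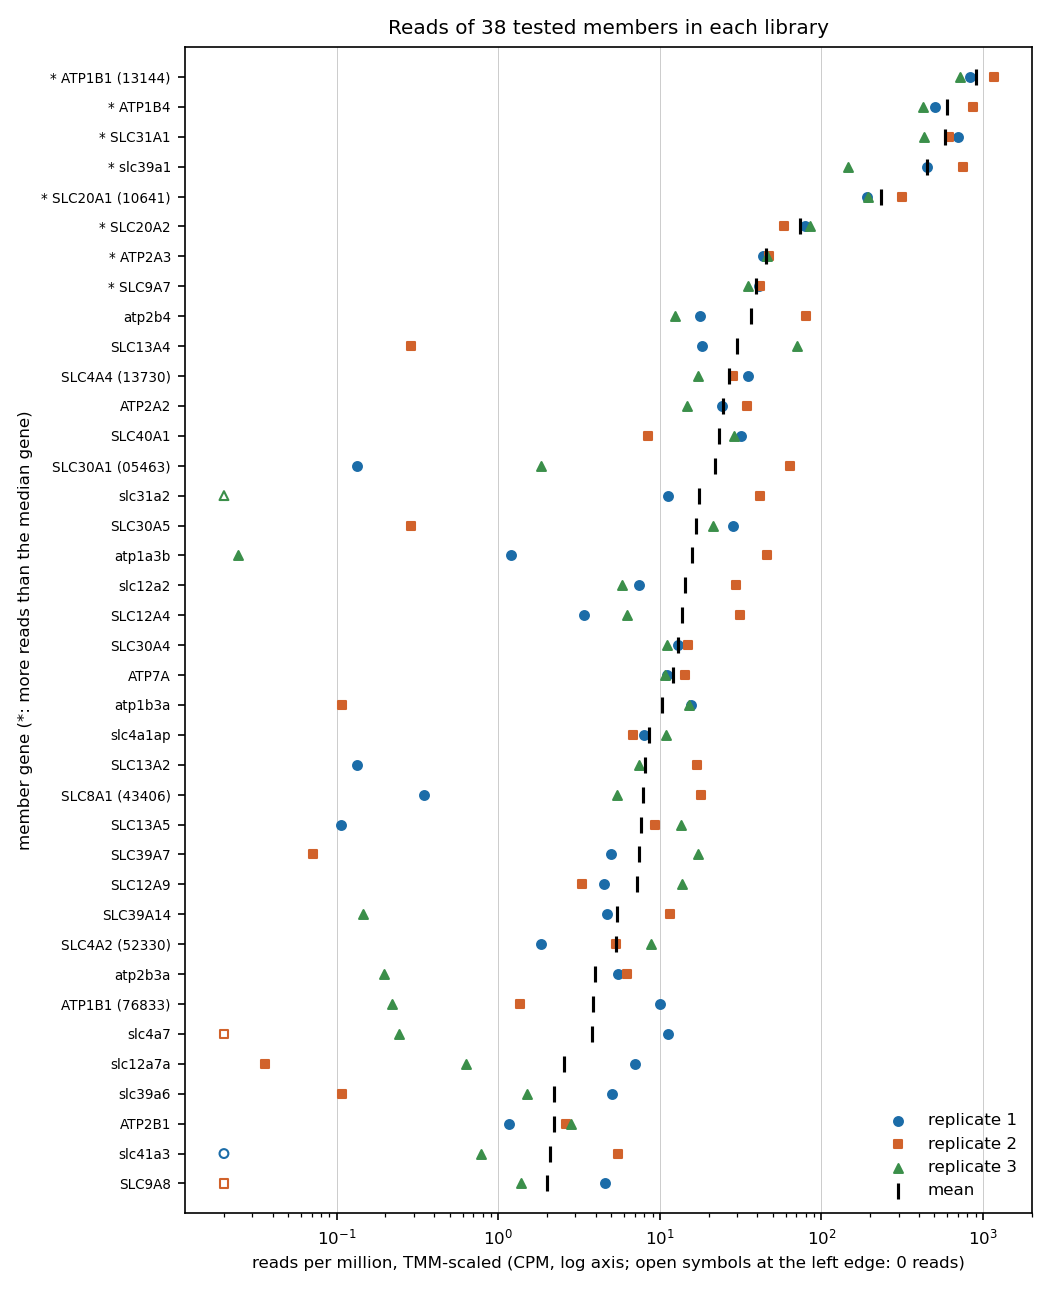
CPM (log axis) of 38 of the 45 tested members in replicates 1, 2 and 3, with the mean as a bar. Digits in brackets are the last of the gene ID where a symbol is shared, and an asterisk marks the 8 genes shown that were above the median gene. The asterisked genes have their 3 libraries within 5.13-fold, while many of the lower genes spread over more than 10-fold.

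The sodium pump was represented in every library by 2 beta subunit genes with high reads. ATP1B1 (ENSDARG00000013144), a beta subunit gene, had 31175, 32517 and 29589 reads in replicates 1, 2 and 3. This was the highest read number of any member, at 902 CPM ± 231, and the gene ranked 88, 74 and 86 by reads among all genes of the 3 libraries. Its log2 ratio to the median gene was 6.21 ± 0.31 (SE, edgeR adjusted p = 3.61e-13).

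ATP1B4 (ENSDARG00000053262) encodes a beta subunit of the pump in fish, whereas in placental mammals its product has left the pump and is a protein of the muscle nuclear envelope. It had 19048, 24382 and 17562 reads, or 504, 871 and 427 CPM. All 3 libraries were high, replicate 2 the most, and the log2 ratio was 5.62 ± 0.32 (SE, edgeR adjusted p = 4.21e-12). The gene is also known from radial glia of the zebrafish brain. Of 6 radial glia markers listed, 3 were found in the table and 0 passed the test: GFAP had 0, 1 and 0 reads, AQP4 1, 0 and 0, and S100B 47, 2 and 16. Their summed level was 0.107 to 1.27 CPM. S100B alone had enough reads to be tested, and fabp7a, slc1a2b and slc1a3b were not found by symbol. The part of radial glia in the ATP1B4 value was not tested.

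The pump genes of neurons were uneven. The alpha gene atp1a3b had 45, 1290 and 1 reads and was high in replicate 2 alone. The mean of atp1a3b was 15.8 CPM and 0.608 CPM without that library. Of 6 neuron markers 5 were found and 4 tested, 1 passing above the median gene and 1 below, and their summed level was 43.2, 188 and 63.8 CPM. Most of that sum came from GNG3, which passed at 42.5, 138 and 62.7 CPM. The neuron genes nefla (18, 1006 and 10 reads) and SYT1 (0, 391 and 16) were also highest in replicate 2, whereas SV2A passed below (6, 13 and 19) and ELAVL3 had 1, 0 and 1. Their part in the atp1a3b value was not tested. The other copy, atp1a3a, had 2, 2 and 55 reads.

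Further beta genes were found in some libraries and not in others. The gene atp1b3a had 585, 3 and 622 reads and atp1b3b 267, 2 and 6, so both were near the floor in replicate 2. A second ATP1B1 gene (ENSDARG00000076833) had 379, 38 and 9 reads. The genes named ATP1B2, known from glia and neurons, stayed low at 8, 13 and 4 reads (ENSDARG00000099203) and 0, 55 and 0 reads (ENSDARG00000034424).

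Copper uptake had the highest mean of the metal families (599 CPM), although in replicate 2 the zinc importers were above it (759 against 654 CPM). SLC31A1 (ENSDARG00000013961), the high-affinity copper importer of the plasma membrane, had 26406, 17133 and 17809 reads, or 699, 612 and 433 CPM. Its libraries differed by no more than 1.61-fold in CPM, and the log2 ratio was 5.56 ± 0.30 (SE, edgeR adjusted p = 2.65e-12). The related slc31a2 had 422, 1161 and 0 reads, with no call. ATP7A, which pumps copper into the Golgi and out of the cell, had 416, 402 and 439 reads. That is close to the median gene (log2 ratio of -0.03, edgeR adjusted p = 0.996) and among the most even of genes at its level: its coefficient of variation (CV) of 0.170 was above that of 1.40% of the 2791 tested genes within a factor of 2 in mean CPM. ATP7B, the copper pump of liver, had no reads.

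The zinc importer gene slc39a1 (ENSDARG00000058257) stood apart from the rest of its family. It had 16995, 20925 and 5998 reads, or 450, 748 and 146 CPM. Replicate 3 was the lowest, and the 5.13-fold span was the widest of the 8 members with a mean of at least 50 CPM. Its CV of 0.672 exceeded that of 90.9% of the 264 tested genes within a factor of 2. The log2 ratio was 5.21 ± 0.41 (SE, edgeR adjusted p = 1.71e-10), and the mean of 448 CPM was 298 CPM without replicate 2.

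Of 12 genes of that importer family, 4 were tested and slc39a1 alone passed. In a family of 4 tested genes, 1 call is too few to set apart from the background of 23.4% above. SLC39A7, which releases zinc from the endoplasmic reticulum, had 189, 2 and 712 reads. SLC39A14, a carrier of zinc, iron and manganese in mammals, had 177, 321 and 6 reads, and slc39a6 had 191, 3 and 62. Each of these fell under 10 reads in 1 library. With limma-trend slc39a6 was called below the median gene (-2.32), but not with edgeR or DESeq2. SLC39A9 and SLC39A10 had 285 and 107 reads in replicate 3 and slc39a3 had 114 in replicate 1, each with at most 1 read elsewhere. SLC39A8, SLC39A11, SLC39A13, SLC39A5 and slc39a4 had at most 2 reads in any library.

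Of the zinc exporters 3 of 10 were tested and 0 were called, whether with edgeR (0 at an unadjusted p under 0.05), DESeq2 or limma-trend, a number too small to set apart from the background of 23.4% above. The plasma membrane exporter gene SLC30A1 (ENSDARG00000005463) had 5, 1783 and 76 reads and rested on replicate 2, with a mean of 21.9 CPM and 0.99 CPM without it. SLC30A5, which loads zinc into the secretory pathway, had 1071, 8 and 876 reads and was low in that library. SLC30A4, an exporter of vesicles, was even at 488, 415 and 455 reads, with a CV of 0.145 that was above that of 0.856% of the 2803 tested genes within a factor of 2. SLC30A7 and SLC30A9 had 551 and 597 reads in replicate 3 and no more than 5 elsewhere. SLC30A2, slc30a6 and the second SLC30A1 gene (ENSDARG00000053896) had none.

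Iron and magnesium carriers were fewer. SLC40A1, the iron exporter ferroportin, had 1206, 236 and 1190 reads and did not pass (23.1 CPM ± 12.8, log2 ratio of 0.88). Macrophages are known to use it heavily. Of 7 macrophage and microglia markers 6 were found and 3 passed, with summed levels of 1085, 1035 and 3311 CPM. Most of that sum came from apoeb, at 990, 724 and 2367 CPM. The genes cd74a and cd74b also passed. The others did not: csf1ra had 0, 3 and 102 reads, ptprc 8, 1 and 237, and SPI1 7, 1500 and 14. Their part in the SLC40A1 value was not tested. The importer gene slc11a2 had 0, 0 and 2 reads. Of the magnesium carriers, slc41a3 had 0, 154 and 32 reads and SLC41A2 3, 0 and 1, and SLC41A1 and slc41a2a had none. The gene slc41a3 was called below the median gene by limma-trend (-2.61), but not by edgeR or DESeq2.

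Both detected phosphate carriers took more reads than the median gene. A family of 2 tested genes is too small to set apart from the background of 23.4% above. SLC20A1 (ENSDARG00000010641), a sodium-phosphate importer, had 7198, 8794 and 7980 reads, or 233 CPM ± 70.4. Its log2 ratio was 4.25 ± 0.33 (SE, edgeR adjusted p = 9.30e-10). SLC20A2, whose human counterpart is linked to calcification in brain vessels, had 2980, 1635 and 3475 reads, or 73.9 CPM ± 13.7 (log2 ratio of 2.58 ± 0.43, SE, edgeR adjusted p = 2.49e-05). The SLC20A2 call was lost without replicate 3 when the tested genes and their median were recomputed (1.35) and held when both were kept (2.49). Against the 75th percentile it was also lost (0.93). A second SLC20A1 gene (ENSDARG00000020114) had no reads.

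Among the sodium-proton exchanger genes, SLC9A7, of the trans-Golgi and endosomes, was even at 1559, 1162 and 1447 reads, with a CV of 0.0912. It passed at 1.68 ± 0.63 (SE, edgeR adjusted p = 0.0309), a call lost without any 1 of replicates 1, 2 and 3 (0.77, 1.16 and 0.60, or 1.66, 1.60 and 1.77 with the tested genes and reference kept) and with either common scaling of the libraries. The SLC9A7 call was also lost among genes with at least 10 reads in all 3 libraries (0.46) and against the 75th percentile (-0.0062). SLC9A8, of the Golgi, had 173, 0 and 57 reads. No read fell on SLC9A2, SLC9A5 and slc9a3.1. The epithelial slc9a3.2 had 0, 1 and 306 reads.

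Calcium pumps of the endoplasmic reticulum were detected in every library. ATP2A3, a pump of non-muscle cells, had 1640, 1319 and 1888 reads, or 43.4, 47.1 and 45.9 CPM. Its CV of 0.0415 was the lowest of the tested members, above that of 0.394% of the 1776 tested genes within a factor of 2. The log2 ratio was 1.89 ± 0.57 (SE, edgeR adjusted p = 0.00643), a call lost without replicate 1 (1.07) and without replicate 3 (0.72) when the reference was recomputed. With the tested genes and reference kept, the ratio was 1.93 without replicate 1, still called, and 1.90 without replicate 3, not called (edgeR adjusted p = 0.0578). The ATP2A3 call was also lost among genes with at least 10 reads in all 3 libraries (0.67) and against the 75th percentile (0.21). ATP2A2, the pump of most cells, had 919, 962 and 605 reads and did not pass (log2 ratio of 1.01). The skeletal muscle pump gene atp2a1 had 6, 55 and 0 reads, and of 5 skeletal muscle markers 3 were found, with 0 tested and a summed level of 0.146 to 0.265 CPM.

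Calcium export at the plasma membrane was less even. The pump gene atp2b4 had 673, 2230 and 513 reads, highest in replicate 2, and did not pass (log2 ratio of 1.62, edgeR adjusted p = 0.114). With the tested genes and the reference kept, it did pass without replicate 3 (2.04), but not with the reference recomputed. ATP2B1 had 44, 73 and 116 reads and atp2b3a 207, 175 and 8, and atp2b2, atp2b3b and atp2b1b stayed at or under 18 reads in every library. ATP2B1 did not pass, but was called below the median gene among genes with at least 10 reads in all 3 libraries (-3.70). With the reference recomputed, the same held without replicate 2 (-3.07) and without replicate 3 (-3.91). Of 7 sodium-calcium exchanger genes, SLC8A1 (ENSDARG00000043406) alone was tested, at 13, 502 and 223 reads. Its second copy (ENSDARG00000013422) had 13, 3 and 0. The mitochondrial exchanger gene slc24a6a and the Golgi pump gene ATP2C1 were found in replicate 3, at 392 and 368 reads, with at most 9 elsewhere. The other 7 genes with an slc24a symbol, including the potassium-dependent exchanger gene SLC24A5 of pigment cells, had at most 2 reads in any library.

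Among bicarbonate, chloride and sulfate carriers edgeR called 0 tested genes in either direction with all 3 libraries, also at an unadjusted p under 0.05. DESeq2 called 0 as well, and limma-trend called slc4a7 (-2.39) and slc12a7a (-2.44) below the median gene. In families of 3 or 4 tested genes, 0 calls are too few to set apart from the background of 23.4% above. SLC4A4 (ENSDARG00000013730), a sodium-bicarbonate cotransporter, was the highest of its family at 1326, 796 and 708 reads, or 26.9 CPM ± 9.04 (log2 ratio of 1.13, edgeR adjusted p = 0.381). The anion exchanger gene SLC4A2 (ENSDARG00000052330) had 69, 149 and 361 reads, and its second copy (ENSDARG00000028173) 2, 6 and 424. The bicarbonate cotransporter gene slc4a7 had 423, 0 and 10. SLC4A11 had 114 reads in replicate 2 and SLC4A5 (ENSDARG00000002771) 85 in replicate 1, each with at most 1 read elsewhere. SLC4A1, the anion exchanger of red cells, had 2, 0 and 0 reads in one copy and none in the other. The symbol rule also took in slc4a1ap, at 302, 190 and 448 reads, which encodes an adaptor protein and not a carrier.

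Of the cation-chloride cotransporters 4 of 14 were tested. The sodium-potassium-chloride importer gene slc12a2 had 280, 823 and 238 reads and the potassium-chloride exporter gene SLC12A4 128, 878 and 258, both highest in replicate 2. SLC12A9 had 169, 92 and 565 reads. SLC12A7, another potassium-chloride exporter, had 1022, 6 and 1, so nearly all of its reads came from replicate 1, and slc12a7a had 263, 1 and 26. The neuronal exporter genes slc12a5a and slc12a5b had 1 read between them, and the kidney cotransporter genes SLC12A1 and SLC12A3 also had 1.

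SLC13A4, a sodium-sulfate carrier known from the mammalian meninges and choroid plexus, had 688, 8 and 2917 reads, or 18.2, 0.286 and 70.9 CPM. Replicate 3 was high and replicate 2 close to empty. The gene did not pass (log2 ratio of 1.23 ± 0.99, SE, edgeR adjusted p = 0.435). Without replicate 2 it passed with the reference recomputed (1.42), but not with the tested genes and reference kept (1.81, edgeR adjusted p = 0.0712). Without replicate 3 the ratio was -0.44, with the reference kept, and the mean fell from 29.8 to 9.25 CPM. Of 5 fibroblast markers 5 were found and 1 passed, with summed levels of 42.0, 89.3 and 81.8 CPM. PDGFRA passed, with 1290, 818 and 2185 reads. The others did not: dcn had 204, 1005 and 952 reads, COL1A2 88, 644 and 202, col1a1a 2, 32 and 25, and lum 1, 0 and 0. Their part in the SLC13A4 value was not tested. The carboxylate carrier genes SLC13A2 and SLC13A5 showed another order, with 5, 472 and 305 reads and 4, 262 and 554, lowest in replicate 1, and slc13a5b had 0, 0 and 238.

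**Figure D3:**
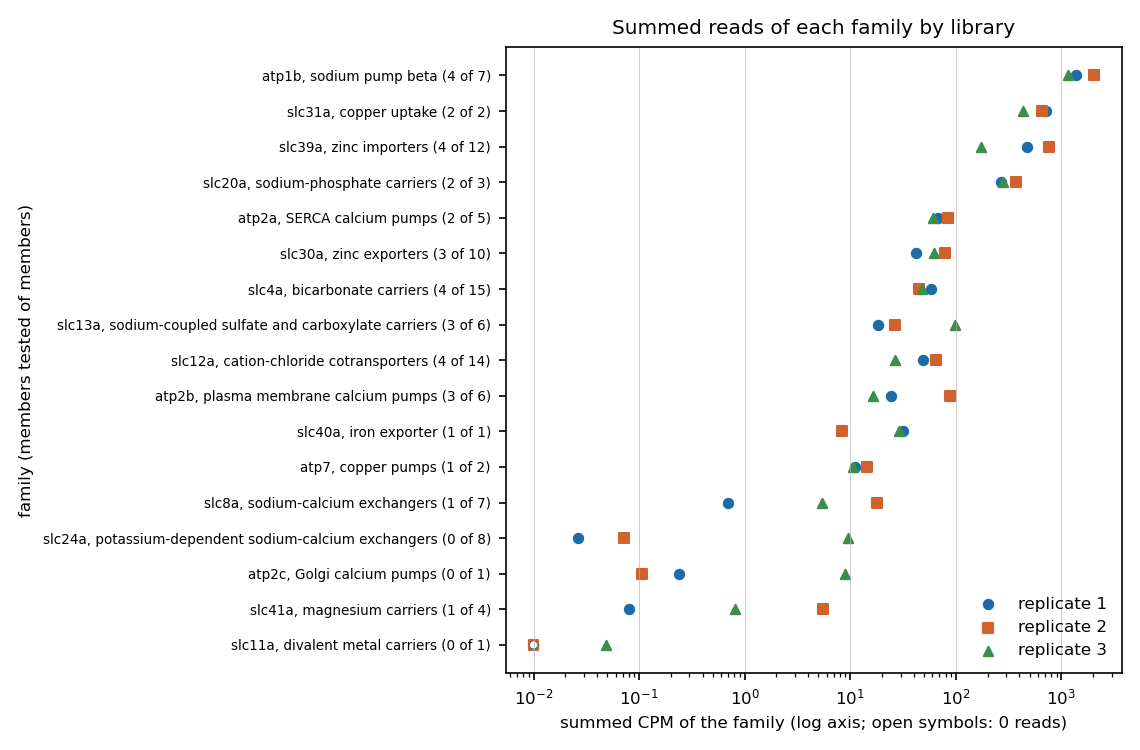
Summed CPM (log axis) of 17 families in replicates 1, 2 and 3, with the number of members tested of all members. The sodium pump beta genes (1162 to 2037 CPM) and the copper uptake genes (433 to 710 CPM) are at the top, and the libraries differ most for the families at the bottom.

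Members differed widely in how evenly the libraries held them. The 25 members with at least 10 reads in all 3 libraries had a median CV of 0.395, and 10 of them kept their libraries within 2-fold. The 20 with at least 10 reads in exactly 2 libraries had a median CV of 1.17 and spans of 4.85-fold or more. The grouping itself requires a lower library, so this wider spread follows in part from it. Among these 20 the low library was replicate 1 for 7, replicate 2 for 8 and replicate 3 for 5. The same counts for all 3003 such genes were 957, 1710 and 336. For the 10 members above the median gene the CV ran from 0.0415 to 0.672, and 3 of the 10 were above the median CV of tested genes at their level. Over all 45 tested members the median CV was 0.857, and over all tested genes it was 0.868.

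**Figure D4:**
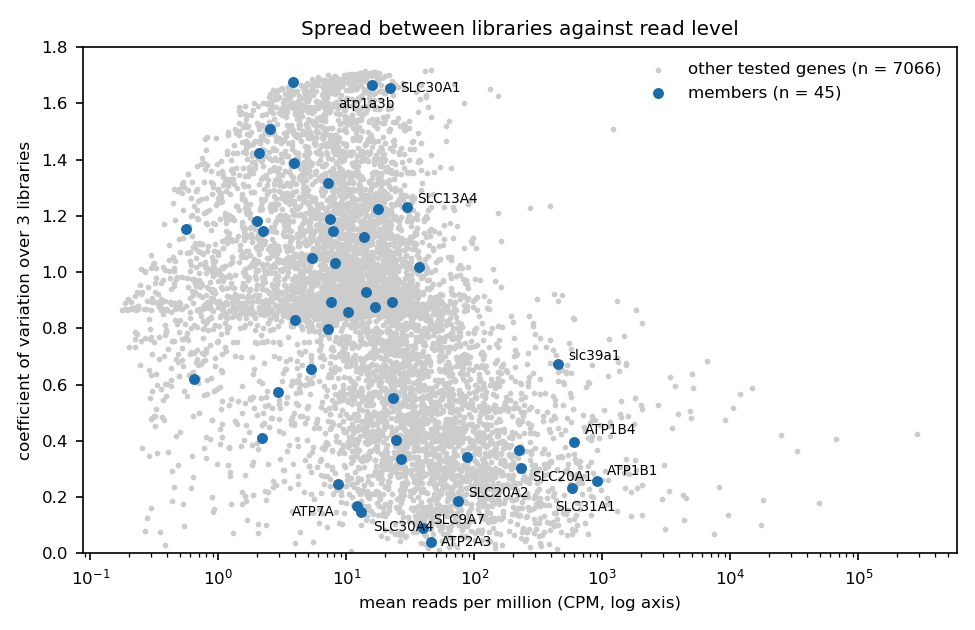
CV over 3 libraries against mean CPM (log axis) for the 45 tested members and for all other tested genes. The called members lie between a CV of 0.0415 and 0.672, and slc39a1 is the highest of them for its level, while SLC30A1 and atp1a3b lie near the top of the range.

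Genes that work with the carriers and pumps were followed in a list of 81 symbols, of which 73 were found, 27 were tested and 9 took more reads than the median gene (0 below by edgeR, against the background of 23.4% above). The median log2 ratio of the 27 was 0.65, beside 0.22 for all tested genes. This list, too, was chosen with earlier results of these data known. CP, the plasma ferroxidase ceruloplasmin, carries copper and oxidises iron released by ferroportin, and had the most reads of the list. It had 28803, 48234 and 95066 reads, or 1599 CPM ± 782, lowest in replicate 1, with a log2 ratio of 7.02 ± 0.35 (SE, edgeR adjusted p = 8.19e-14). STEAP4, a metal reductase, had 1279, 364 and 3866 reads and passed at 1.90, but its ratio was -0.16 and not called without replicate 3, and 1.44 and not called without replicate 1. With the tested genes and reference kept, these were 0.93, not called, and 2.09, called. The mean of STEAP4 was 47.0 CPM and 23.4 CPM without replicate 3. Of the copper list, cox17, a copper chaperone for the respiratory chain, passed at 120 CPM ± 38.7, and atox1, the chaperone that hands copper to ATP7A, missed the threshold with 860, 700 and 2618 reads (log2 ratio of 1.58, edgeR adjusted p = 0.0522). Of the transferrin receptor genes, tfr1a had no reads and tfr1b had 160, 2 and 0, so it was found in replicate 1 alone.

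Regulators of the sodium pump and of the chloride cotransporters gave 4 of the 9 calls. Of 16 found, 8 were tested and 4 passed, beside the background of 23.4% above. Whether 4 of 8 differs from that share was not tested. The pump regulator gene fxyd6l had 3771, 3015 and 5871 reads (117 CPM ± 22.8, log2 ratio of 3.24). The kinase gene sgk1, which regulates sodium transport, had 4110, 5217 and 7700 reads (161 CPM, log2 ratio of 3.71). The scaffold gene cab39l1, whose product binds the kinases that act on chloride cotransporters, had 4791, 3944 and 4641 (127 CPM ± 14.0, log2 ratio of 3.37). Its relative CAB39L passed at 65.5 CPM, a call lost without replicate 2 (38.2 CPM) and, with the reference recomputed, without replicate 3 (1.24). With the reference kept, it held without replicate 3 (2.55). Among the kinases themselves STK39 had no reads and oxsr1a 113, 5 and 703. WNK1 had 0, 1748 and 304 reads in one copy and 639, 98 and 92 in the other, wnk1a, and neither was called.

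Partners of calcium and phosphate transport added 2 calls. These were 1 of 7 tested genes of the calcium list and 1 of 3 of the magnesium and phosphate list. Such numbers are too small to set apart from the background of 23.4% above. The calcium-binding chaperone gene calr3a had 4738, 1575 and 3934 reads (92.4 CPM ± 34.7, log2 ratio of 2.89). The phosphate exporter gene xpr1b had 4134, 633 and 1479 reads and passed at 2.17, a call lost without replicate 1, where the mean was 29.3 in place of 56.0 CPM. Without replicate 3 it was lost with the reference recomputed (1.36) and held with the reference kept (2.41). The store-operated calcium entry genes STIM1 (ENSDARG00000060723) and ORAI1 (ENSDARG00000011515) were lowest in replicate 2, as xpr1b was, with 702, 7 and 295 reads and 1476, 10 and 820. The mitochondrial calcium channel gene MCU had no reads, whereas its regulator MICU2 had 1157, 964 and 565. Of the proton and bicarbonate partners 2 of 6 were tested. With edgeR (0 at an unadjusted p under 0.05), DESeq2 or limma-trend, 0 took more reads than the median gene. With 2 tested genes, 0 calls cannot be set apart from the background of 23.4% above. Of the magnesium and phosphate list 3 of 13 found were tested. For zinc the single gene found, MTF1, had no reads.

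**Figure D5:**
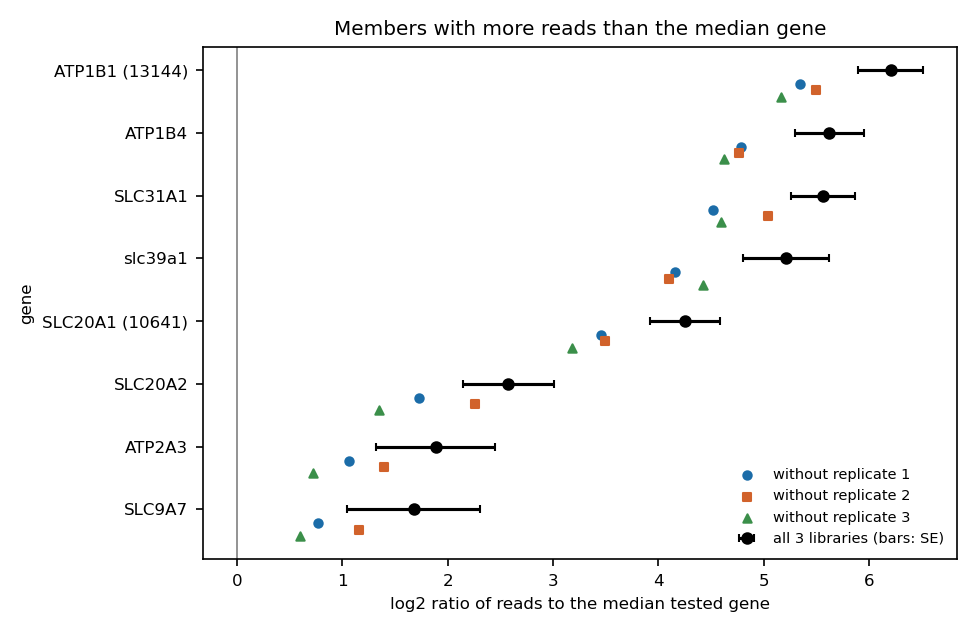
Log2 ratio of reads to the median tested gene for 8 of the 10 members above it, with all 3 libraries (SE as bars) and with each library left out. Ratios are lower without any library, where fewer genes are tested (30 to 33 members) and the reference is recomputed; SLC20A2, ATP2A3 and SLC9A7, at the bottom, are the genes whose call was lost.

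The calls held to different degrees. Of the 10 members above the median gene, 6 were called under each of the 13 alternative settings, among them ATP1B1, ATP1B4, SLC31A1, slc39a1 and SLC20A1. With a library left out, the genes tested and their median are recomputed, and the ratios of the called members moved by a median of -0.84, -0.72 and -1.08 without replicates 1, 2 and 3. With the tested genes and the reference kept, the median moves were 0.06, -0.29 and 0.13.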

How the data were processed

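RNA-seq of 3 muLEC libraries was used. The authors deposited counts, whole-number reads for each Ensembl gene. The submitters' processing notes name GRCz10, bcl2fastq and R 3.2.2; aligner, counter and strand setting were unknown here. A YuGene score, also deposited by the authors, only served to order the members: its 15 highest tested members were the 15 highest by CPM. The columns, named pvLEC, were matched by replicate number. Nothing says whether pools were sorted on separate days, so p-values measure the spread between these libraries. The edgeR fit drew each gene's spread toward a trend over all tested genes, so SE and p do not follow its own spread alone. ATP2A3 had a CV of 0.0415 and an SE of 0.57, whereas slc39a1 had a CV of 0.672 and an SE of 0.41.

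CPM were scaled with edgeR 4.0.16 TMM factors (1.05, 0.796 and 1.20). A gene was tested if 2 or more libraries held 10 or more of its reads. In the quasi-likelihood fit of edgeR the intercept was tested, with the log median count of the tested genes (475, 328 and 523 reads in replicates 1, 2 and 3) as offset and Benjamini-Hochberg adjustment over 7111 genes. The test was written out from the glmQLFit output and tested on simulated data. Alternatives were DESeq2 1.42.0, limma-trend (limma 3.58.1), other filters, references and scalings, and leaving out each library. Symbols were looked up by gene ID, and several copies share one. Gene lengths and sequences were not used here. A few members are not reported here; any other could be named, with full statistics for those that passed, ATP1B4 and SLC13A4, and up to 15 related genes that passed. Members and lists were chosen with earlier results of these data known.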

Additional observations from a re-analysis of the deposited data

How the results depend on the processing

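The count of 10 members above the median gene was 52 of 90 tested with no filter, where the median gene had few reads. There 45.5% of all tested genes were called above. Against the 75th percentile the count was 6 of 45, beside 11.1% of all tested genes. It ran from 7 to 10 with a library left out (30 to 45 members tested), beside 21.1% to 27.2% of all tested genes. Under the other alternatives it was 8 to 10, beside 21.5% to 25.3%. The count of 0 below was 2 of 25 among genes with at least 10 reads in all 3 libraries, beside 5.33% of all tested genes. With limma-trend it was 7 of 45, beside 14.7%. With a library left out and the reference recomputed it was 1 to 2 of 30 to 33, beside 4.84% to 8.25%. With the reference kept it was 0, beside 0%. Otherwise it was 0, beside 0% to 1.6%. The 9 related genes above became 35 of 60 tested with no filter, beside 45.5% of all tested genes. With a library left out they were 6 to 9 of 17 to 27 tested, beside 21.1% to 27.2%. They were 6 of 17 tested among genes with at least 10 reads in all 3 libraries, beside 25.3% of all. Against the 75th percentile they were 6 of 27, beside 11.1%. CAB39L, xpr1b and STEAP4 lost their calls under that filter and against that reference. The log2 ratio turned to -0.0062 for SLC9A7 against the 75th percentile, and for SLC13A4 to -0.29 there and to -0.055 with limma-trend, neither called; with a library left out, it ran from -0.44 to 1.81 for SLC13A4 and from -0.16 to 2.33 for STEAP4 (-0.16 to 1.93 with the reference recomputed). Mean CPM of the 45 tested members moved by less than 1 SD under plain library size and DESeq2 size factors. With replicate 1, 2 or 3 left out it moved by over 1.5 times for 6, 12 and 6 of the 45. No filter and the stricter filter change which genes are tested, and so the reference; for the other changes the cause was not tested. A fit per kb of coding sequence was not run, because no lengths were used here. No paired analysis was possible because the libraries form 1 group. Depth limits statements on the 54 members at or under 3 reads in every library: absence cannot be told from a low level.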
